A study of Mus musculus with 24 samples.

Results

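The genes described here encode the proteins of the cytosolic ribosome. They were found by symbol: Rpl or Rps followed by digits and an optional letter or suffix, plus Rplp0, Rplp1, Rplp2 and Rpsa, leaving out pseudogenes and the Rps6k kinases. The rule found 84 genes over 4 deposited tables, 83 of 24421 entries for CALM-AF10, 84 of 24557 for MLL-AF10, 83 of 24340 for MLL-AF9 and 83 of 24421 for Jak1. Of these, 46 encode core proteins of the large subunit and 31 core proteins of the small subunit. The other 7 are paralogs, namely Rpl3l, Rpl10l, Rpl32l, Rpl36al and Rpl39l of the large subunit and Rps4l and Rps27l of the small subunit. Rpl32l was listed for MLL-AF10 only. The near relatives Rpl7l1, Rpl22l1, Rpl37rt and Rps27rt carry other suffixes and are given apart.

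The ribosome joins a small subunit, which reads the messenger RNA, to a large subunit, which forms the peptide bond. Each subunit needs its proteins in matching amounts, and the messages of these proteins share a run of pyrimidines at the 5′ end (the TOP motif) through which the kinase mTOR controls their translation. In blood-forming cells, loss of a single copy of genes such as RPS19 or RPS14 is known from human anemias, and free Rpl5 and Rpl11 bind Mdm2 and thereby raise p53.

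RNA-seq was done on cultured C57BL/6 bone marrow leukemia cells grown with SCF, IL3 and IL6. The 24 libraries form 8 groups of 3. Cells with inducible CALM-AF10, MLL-AF10 or MLL-AF9, all labelled wild type, received doxycycline (DOX) or its vehicle DMSO. CALM-AF10 cells with floxed Jak1 were compared with cells labelled Jak1 deleted, in which 4-hydroxytamoxifen had activated Cre-ER, so both of these groups carried the fusion. For CALM-AF10 the table names its columns on and off, and no source used here ties those names to DMSO or DOX. The input was polyA RNA in 3 experiments and total RNA in MLL-AF9. The sources used here give no doses, times or number of clones, and nothing says that the libraries of a group were separate cultures, so p-values measure the spread between libraries, which may be technical.

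The CALM-AF10 libraries held 12130633 to 40187404 counts and the Jak1 libraries 11743388 to 13764632, while the depth behind the log2 values of MLL-AF10 and the FPKM of MLL-AF9 is unknown. In CALM-AF10 the shallowest library, off 3, stood apart: its members scattered around their group mean with an SD of 0.15 on the log2 scale, against 0.05 to 0.09 in the other 5 libraries. In the Jak1 table, the level over the whole Jak1 gene was 195 to 198 CPM (counts scaled to library size, with TMM factors) in floxed and 153 to 166 in null libraries (−0.32 on the log2 scale, edgeR adjusted p = 2.0e-08). The deleted exons were not counted apart there. Of 11 myeloid progenitor markers all were tested in each table. In the count tables, of 5 T cell markers, 3 had 0 counts in every library and the other 2 stayed below 1 CPM. In bulk samples, fewer cells of a type and less RNA per cell cannot be told apart.

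The pyrimidine tract is shown first, because it is the sequence feature that these genes are known for. RefSeq promoters (GRCm38.p6) were at hand for 57 of the 77 core genes. A C followed by at least 6 pyrimidines, on the coding strand and within 10 bases of the annotated start, was found in 27 of the 57 (47.4%), against 14.1% of 27025 genes with a promoter in the same table. The following stretches run from 35 bases before the start to base 25 of the transcript, 5′ to 3′, with the tract in capitals. They belong to the 4 members with a tract that rose most without Jak1 and to the 4 with the lowest log2 fold changes there.
Rplp2: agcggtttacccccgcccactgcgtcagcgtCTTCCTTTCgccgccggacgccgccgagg
Rps15a: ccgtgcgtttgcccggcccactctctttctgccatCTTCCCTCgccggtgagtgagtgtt
Rps6: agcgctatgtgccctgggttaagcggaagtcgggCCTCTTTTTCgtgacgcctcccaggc
Rps21: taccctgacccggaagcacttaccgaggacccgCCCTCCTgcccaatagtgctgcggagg
Rpl13a: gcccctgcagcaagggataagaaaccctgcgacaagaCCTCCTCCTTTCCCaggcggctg
Rps10: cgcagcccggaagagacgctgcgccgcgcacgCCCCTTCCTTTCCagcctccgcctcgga
Rpl28: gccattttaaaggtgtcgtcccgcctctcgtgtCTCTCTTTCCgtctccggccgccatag
Rpl7a: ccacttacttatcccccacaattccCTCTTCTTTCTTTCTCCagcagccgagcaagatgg

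The tracts ran over 7 to 10 bases in the first 4 stretches and over 10 to 17 in the others. They were counted from the first C within the 10 bases, and in Rpl7a more pyrimidines precede that window. Tract length was measured in these stretches only, so its relation to the fold change was not tested. The stretches lie at chr7:141447616-141447675 (plus strand, Rplp2), chr7:118116123-118116182 (minus, Rps15a), chr4:86857343-86857402 (minus, Rps6), chr2:180257344-180257403 (plus, Rps21), chr7:45128721-45128780 (minus, Rpl13a), chr17:27635220-27635279 (minus, Rps10), chr7:4792930-4792989 (plus, Rpl28) and chr2:26910772-26910831 (plus, Rpl7a), all GRCm38.p6. In the promoters from 250 bases before to 50 after the start, read on both strands, the letters CCGGAAG, an ETS-type site, stood in 24 of the 57 (42.1%) against 9.93% of all. The letters AAGATGGC, a YY1-type site, stood in 5 (8.77%) against 3.19%, and TATAAA in 6 (10.5%) against 15.7%. TTCNNNGAA, the core of a STAT-type site, stood in 3 (5.26%) against 9.55%. Such matches describe letters in a window and are not bound sites.

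Deletion of Jak1 in CALM-AF10 cells went with higher messages of most ribosomal proteins. Of 77 members tested, 53 rose and 0 fell (edgeR's quasi-likelihood test, Benjamini-Hochberg adjusted over 11607 genes). Among all genes tested 27.4% were called higher and 28.3% lower, so 68.8% of the members compares with 27.4%. The rises were small, from 0.07 to 0.29 on the log2 scale. The median over the tested members was 0.12, or 8.48%, beside 0.01 over all genes. In 42 members the groups did not overlap, all of them higher, against 30.2% of all genes higher without overlap.

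**Figure D1:**
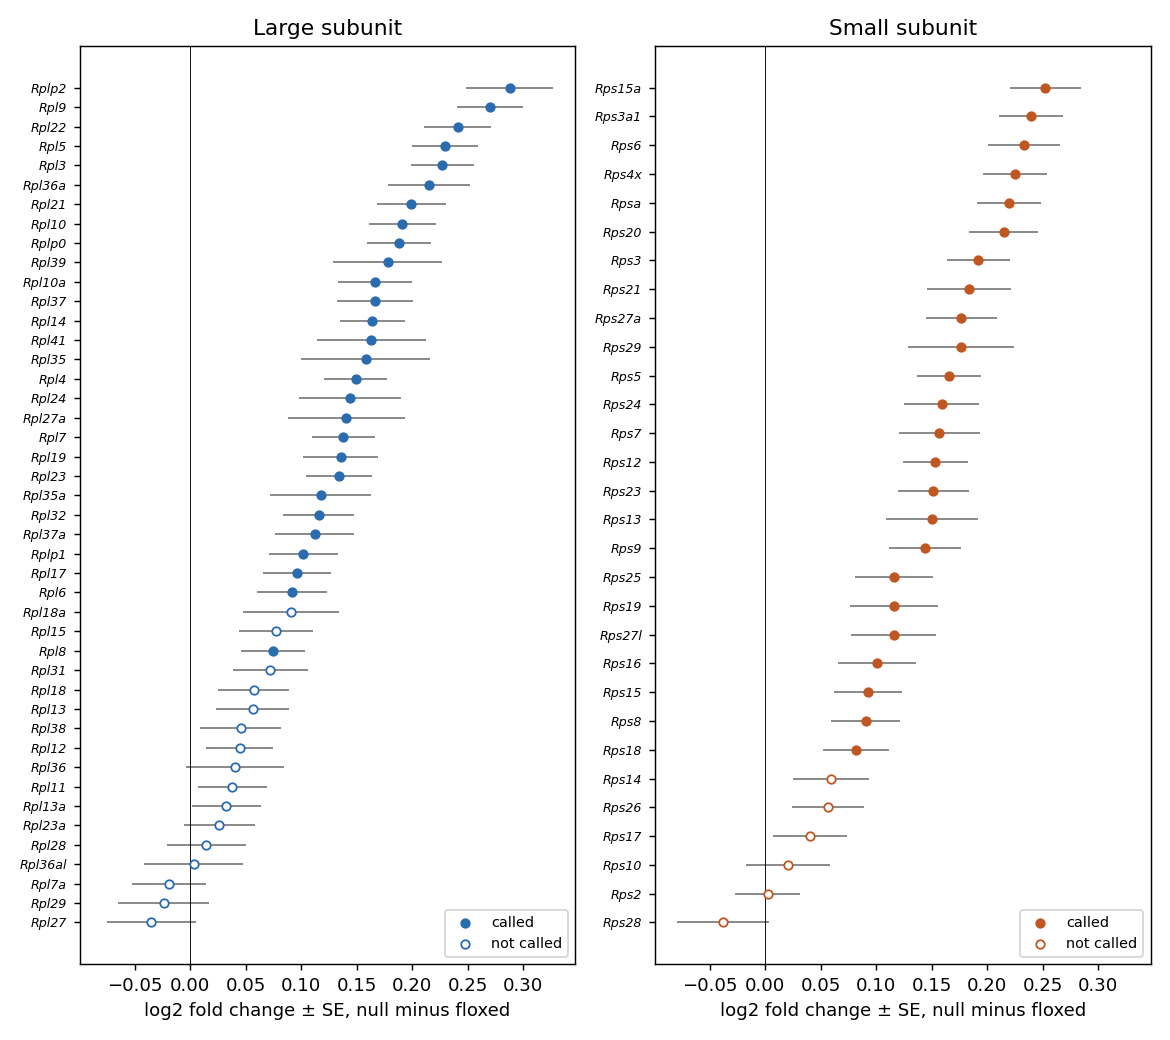
Log2 fold change with its standard error (x axis) of the tested members, null minus floxed, with the large subunit on the left and the small subunit on the right; filled points passed an adjusted p of 0.05. Rps27 and Rpl34, at under 3 CPM, and 1 member that is not reported here are not drawn. The rises run from 0.07 to 0.29, and Rpl27, Rps28, Rpl29 and Rpl7a lie below 0 without being called.

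Of the large subunit 28 of 45 rose, with a median of 0.12, and of the small subunit 25 of 32, with a median of 0.15. The large subunit median was lower by 0.03, and by 0.01 without floxed 3, where the SD of that difference between libraries was 0.02. By library the difference overlapped between groups. In floxed 1 the large and small subunit medians were −0.03 and −0.01 relative to the floxed mean, and in null 2 both were 0.11. The large subunit took 58.0% to 58.5% of the members' counts in floxed and 57.7% to 58.1% in null libraries, ranges that overlap (two-sided exact permutation test, p = 0.3, n = 3 against 3).

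The stalk of the large subunit, which recruits the elongation factors, held the member with the largest rise. Rplp2 stood at 603, 659 and 718 CPM in floxed and at 814, 791 and 811 in null libraries. Every null library lay above every floxed one (0.29 ± 0.04 SE, adjusted p = 2.82e-07 by edgeR). Rplp0, the base of the stalk, went from 2221 ± 51.7 to 2529 ± 31 CPM (SD, n = 3), and rose by 0.19. Rplp1 rose by 0.10, a call that was lost without floxed 1 (adjusted p = 0.0512).

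Rpl5 and Rpl11, the protein partners of 5S ribosomal RNA, stood apart in size. Rpl5 was at 672, 688 and 701 CPM in floxed and 805, 824 and 789 in null libraries, without overlap (0.23, adjusted p = 1.19e-07 by edgeR). Rpl11 was at 690, 654 and 690 CPM in floxed and 707, 676 and 704 in null libraries, with overlapping groups (0.04, adjusted p = 0.305). The difference between the 2 genes was not tested.

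After Rplp2 the largest rises were those of Rpl9, Rps15a, Rpl22, Rps3a1 and Rps6. Rpl9 was at 675, 711 and 709 CPM in floxed and 840, 836 and 852 in null libraries (0.27, adjusted p = 5.05e-09 by edgeR). Rps15a went from 461, 496 and 488 CPM to 558, 575 and 588 (0.25). Rps6, the substrate of the S6 kinases, went from 561, 601 and 568 CPM to 669, 662 and 702 (0.23). In all 3 genes each null library exceeded each floxed one.

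Rpl22, whose loss is known from T cell leukemia, rose by 0.24, from 441 ± 9.77 to 521 ± 6.35 CPM. Its near relative Rpl22l1 stood at 102 ± 4.54 and 101 ± 4.41 CPM (−0.02, adjusted p = 0.763 by edgeR). Rps3a1, the mouse gene for Rps3a, rose by 0.24. The X-linked Rps4x rose by 0.23 and Rpl10, also X-linked, by 0.19. Rpl3, which lies close to the peptidyl transferase center, rose by 0.23, and Rpsa, known also as the laminin receptor precursor, by 0.22.

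Rps27a, which is made as a fusion to ubiquitin, rose by 0.18, Rpl36a by 0.22, Rpl39 by 0.18 and Rps19 by 0.12. The call of Rpl39 was lost without floxed 1 (0.10, adjusted p = 0.0579) and by DESeq2 (0.17, adjusted p = 0.146). The call of Rps19 was lost without floxed 2 (0.07, adjusted p = 0.152) and without null 1 (0.07, adjusted p = 0.174). The paralog Rps27l, a p53 target in human cells, rose by 0.12. Its call was lost without floxed 1 (0.10, adjusted p = 0.0553) and with the correction for GC content and length (0.08, adjusted p = 0.0623), at values still above 0. Rpl36al was at 80.7 ± 1.14 and 80.8 ± 1.37 CPM (0.00).

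The other 24 tested members did not pass the threshold. Rps14 was at 944 ± 38.9 and 984 ± 48.3 CPM (0.06, adjusted p = 0.142 by edgeR) and Rpl38, known for patterning of the mouse skeleton, at 169 ± 4.28 and 174 ± 4.34 CPM (0.05, adjusted p = 0.304). Rps28, Rpl27, Rpl29 and Rpl7a had log2 fold changes below 0, from −0.04 to −0.02. They were named after their values were seen, as the 4 members below 0.

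Summed over the members, ribosomal protein genes took 5.15% to 5.33% of all counts in floxed and 5.67% to 5.83% in null libraries. The shares do not overlap (two-sided exact permutation test, p = 0.1, the smallest that 3 against 3 allow). With DESeq2 46 members rose, and leaving out 1 library at a time gave 43 to 56. Of the 53, 35 were called in each of the 6 fits that left out a library.

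**Figure D2:**
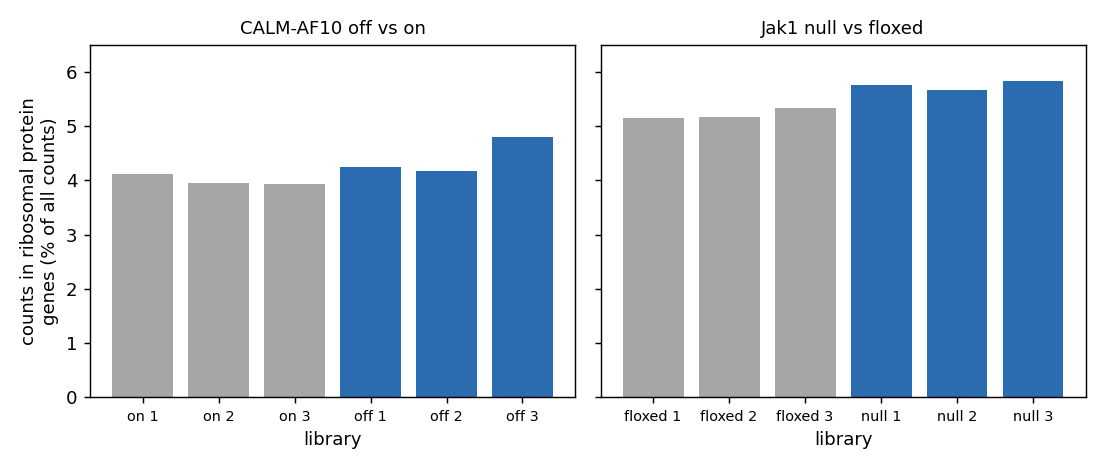
Share of all counts that fell on ribosomal protein genes (y axis, percent, from 0) in each library of the CALM-AF10 table (left) and the Jak1 table (right), with grey for the on and floxed and blue for the off and null groups. Null libraries lie at 5.67% to 5.83%, above floxed ones at 5.15% to 5.33%, and the library off 3 lies at 4.80%, above off 1 and off 2.

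Within the members, the size of the rise went with base composition. Over 75 members with an annotated transcript, the log2 fold change had a Spearman correlation of −0.42 with GC content and of 0.30 with transcript length, against −0.11 and −0.03 over 10481 tested genes. All members share the same 6 libraries, so these values are a description. Of the 37 members under a GC content of 51.6%, 31 rose, and of the other 38, 20 rose. After removal of the dependence on GC content and length over all genes, chosen after the data were seen, 57 members rose and 0 fell, beside 29.1% of all genes called higher and 27.4% lower, and the median was 0.13.

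Of the tested core genes with a promoter at hand, 16 of 27 with the pyrimidine tract rose, with a median of 0.12. Of the 29 without it, 23 rose, with a median of 0.15. For the letters CCGGAAG the counts were 15 of 23 with and 24 of 33 without.

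Most genes on a chosen list of other TOP and translation genes also rose, while most genes of the mitochondrial ribosome did not pass the threshold. Of 18 further genes with TOP messages or a place in the same pathway, 17 rose and 0 fell. Eif3f, a subunit of the initiation factor eIF3, rose from 776 ± 7.13 to 971 ± 12.3 CPM (0.32, adjusted p = 4.75e-11 by edgeR), and Eef1a1, the factor that brings aminoacyl-tRNA to the ribosome, rose by 0.32, as did Eef1b2. Fau, which encodes a ribosomal protein behind a ubiquitin-like part, was at 306 ± 3.68 and 300 ± 7.04 CPM (−0.02, adjusted p = 0.534). Of 77 genes of the mitochondrial ribosome 19 rose, among them Mrpl44 (0.35), Mrps23 (0.28) and Mrpl52 (0.45), and 8 fell. Their median was 0.08, above that of all genes. Those 19 are 24.7% of the list, a share no larger than the 27.4% of all genes called higher.

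Among 16 tested regulators of ribosomal protein synthesis 1 rose and 3 fell, shares below the 27.4% and 28.3% of all genes. The Myc antagonist Mxd1 fell by 0.91, from 166 ± 13.2 to 88.6 ± 1.41 CPM (adjusted p = 1.61e-16 by edgeR). Eif4ebp1, an mTOR target that holds back translation, fell by 0.69, from 102 ± 2.65 to 63.5 ± 1.28 CPM, and Rptor, the mTOR partner, rose by 0.23.

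Markers of cell identity also differed between these groups. The summed level of 11 myeloid progenitor markers was 6687 to 6854 CPM in floxed and 8309 to 8575 in null libraries. Of the 11, 6 rose and 2 fell, beside 27.4% of all genes called higher and 28.3% lower. Mpo went from 180 ± 14.7 to 719 ± 38.5 CPM and Kit from 42.4 ± 1.45 to 62.4 ± 3.21. Both are from the side with higher values, and the markers that fell are not named here. The 4 megakaryocyte markers summed to 11.03 to 12.02 CPM in floxed and 1.14 to 2.36 in null libraries, and 3 endothelium markers, mostly Pecam1, to 167 to 171 and 252 to 262. The 4 mast cell markers had 0 counts throughout. The part of these differences in the rise of the ribosomal protein genes was not tested.

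With CALM-AF10 off, most ribosomal protein genes had higher values, but nearly none passed the test. Of 80 members tested 1 rose and 0 fell, beside 2.13% of 12366 genes called higher and 3.11% called lower (edgeR's quasi-likelihood test). The median log2 fold change was 0.15, against −0.00 over all genes, and 72 of the 80 lay above 0. In 48 members all off libraries exceeded all on libraries, beside 14.4% of all genes.

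**Figure D3:**
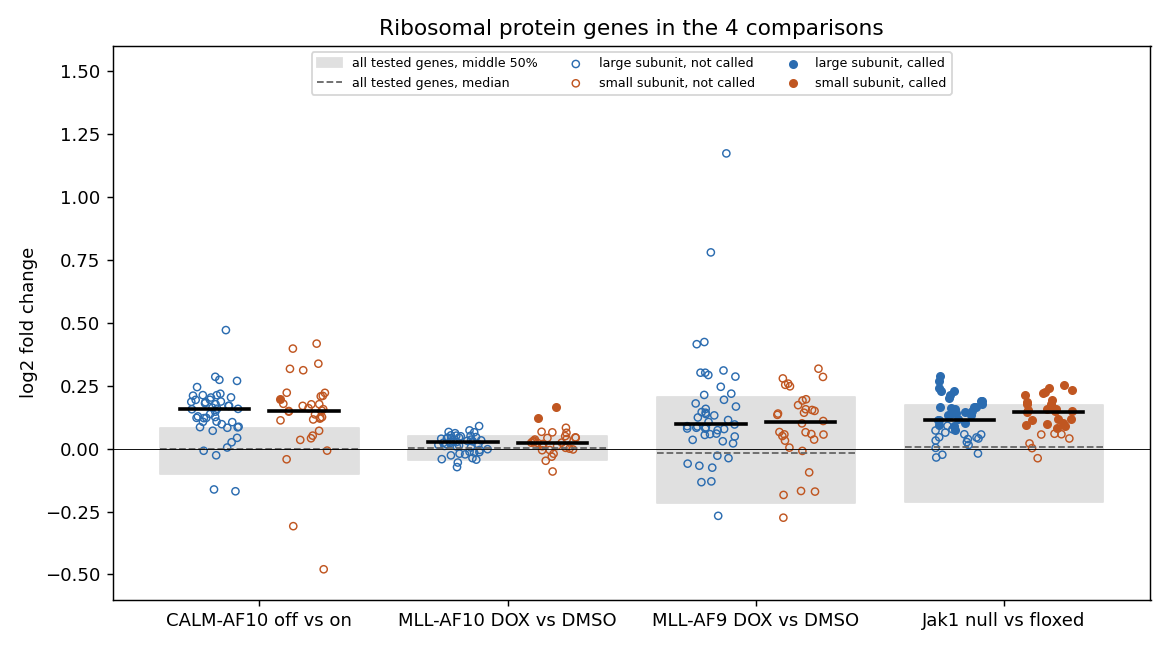
Log2 fold changes (y axis) of the tested members in each comparison, with large subunit genes in blue and small subunit genes in orange; filled points were called, black bars are medians, and grey boxes with a dashed line give the middle 50% and the median of all tested genes. Both subunits have medians above that of all genes in each comparison, from 0.02 in MLL-AF10 to 0.16 in CALM-AF10, and the called points number 53 in the Jak1 comparison and at most 2 in the others.

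Rps23, a protein of the decoding center, was the member called. It stood at 336, 326 and 310 CPM with the fusion on and at 372, 367 and 377 with it off, without overlap (0.20 ± 0.04 SE, adjusted p = 0.0368 by edgeR). That call was lost without any of the libraries on 1, on 2, on 3, off 1 and off 2, with adjusted p from 0.0618 to 0.167.

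The library off 3 carried the largest values. The median of the members, relative to the on mean, was 0.10 in off 1, 0.08 in off 2 and 0.26 in off 3. Rps14 shows it, with 682, 676 and 637 CPM in on and 743, 734 and 1048 in off libraries. All off libraries lay above all on libraries, yet the gene was not called (0.34, adjusted p = 0.140 by edgeR).

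Without off 3, 9 members rose, beside 3.52% of all genes called higher in that fit, and the median was 0.09. These were Rpl12, Rpl14, Rpl7a, Rpl8, Rps10, Rps14, Rps2, Rps23 and Rpsa, with log2 fold changes of 0.12 to 0.19. Without any other library the count was 0. DESeq2 on all libraries called 11 members higher, beside 3.11% of all genes. With the replicate number as a block edgeR called 4 higher, beside 3.3% of all genes. At an unadjusted p under 0.05 by edgeR 43 of the 80 members were higher, beside 1249 of 12366 genes.

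In this table short genes and genes of high GC content had higher values with the fusion off in general. The Spearman correlation of the log2 fold change with transcript length was −0.21 over 11049 genes and that with GC content 0.19, and the 566 tested genes of up to 900 bases had a median of 0.08. With the correction for GC content and length 0 members were called, beside 2.8% of all genes called higher and 3.95% lower, and the median fell from 0.15 to 0.07. At an unadjusted p under 0.05 that fit had 16 members higher, beside 1291 of 12366 genes.

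Large and small subunit differed little. The medians were 0.16 and 0.15, and their difference of 0.01 was within the spread between libraries (SD 0.01). Ribosomal protein genes took 3.93% to 4.12% of counts in on and 4.18% to 4.25% in off 1 and off 2, with 4.80% in off 3 (two-sided exact permutation test, p = 0.1, the smallest possible).

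Among the genes followed in every comparison, Rplp2 was at 473, 449 and 473 CPM in on and 503, 493 and 710 in off libraries. Rps27a was at 402, 398 and 410 in on and 437, 439 and 636 in off. In both genes the groups were apart, with off 3 far above the others, and neither was called (0.29 and 0.32, adjusted p = 0.204 and 0.179 by edgeR). Rpl5, Rplp0 and Rps4x overlapped between groups, at 0.07, 0.03 and 0.03. Of the paralogs, Rps27l was at 0.04, and Rpl36al at 0.18 with groups apart; neither was called.

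Of the 18 further translation genes 0 were called by edgeR, 4 had an unadjusted p under 0.05, and 17 lay above 0 with a median of 0.08. Nearest was Gnb2l1, which encodes the ribosomal scaffold Rack1 (0.15, adjusted p = 0.0564), followed by Eef1b2 (0.18) and Eif3f (0.11). The 77 mitochondrial ribosomal genes had a median of 0.07 and 0 calls by edgeR, with 16 at an unadjusted p under 0.05, the nearest being Mrpl43 (0.25, adjusted p = 0.0632), Mrps15 (0.15) and Mrpl17 (0.13). Of 17 regulators 1 was called, as Eif4ebp1 rose by 0.24 (adjusted p = 0.0219 by edgeR), while Mycn (−0.45) and Max (−0.11) were not called. Among all genes 2.13% were called higher and 3.11% lower.

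The 11 myeloid progenitor markers summed to 10069 to 10432 CPM in on and 12136 to 12437 in off libraries. Of them 5 rose, beside 2.13% of all genes called higher. The 4 megakaryocyte markers went from 336 to 347 down to 286 to 303 CPM in sum, and the 4 mast cell markers from 218 to 234 up to 251.02 to 265.29. The part of these markers in the members' values was not tested.

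**Figure D4:**
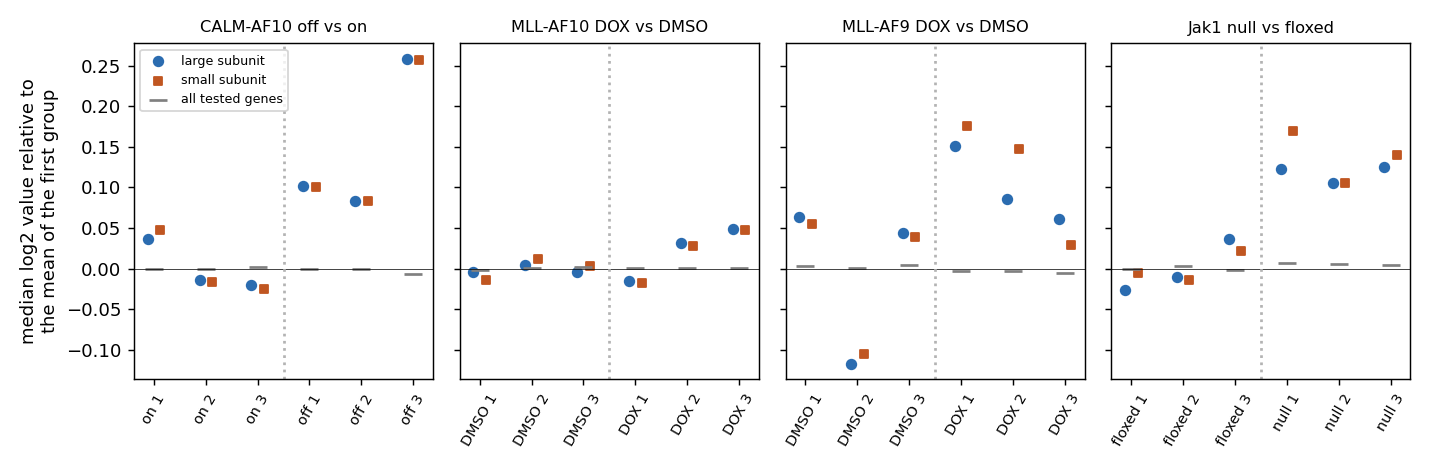
Median over large subunit (blue circles) and small subunit genes (orange squares) and over all tested genes (grey dashes) of the log2 value in each library, relative to the mean of the first group of its comparison (y axis). The off libraries lie at 0.10, 0.08 and 0.26, the null libraries at 0.11 to 0.17, and the subunits are furthest apart in null 1, at 0.12 and 0.17, among the Jak1 libraries.

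In MLL-AF10 the differences were smaller still, on a log2 scale of which the sources used here do not say how it was made, and which may shrink fold changes. Of 75 members tested 2 rose and 0 fell with DOX, beside 10.6% of 10553 genes called higher and 9.17% called lower by limma. The median was 0.02, against 0.00 over all genes, and 0.04 without DOX 1 or 0.01 without DOX 2 or DOX 3. With the correction for GC content and length the median was 0.01, the same 2 members rose, and Rps28 fell by 0.15 (adjusted p = 0.0401 by limma). In 12 members the DOX libraries were all higher and in 2 all lower, beside 19.3% and 17% of all genes, so the members' shares are no larger than those of all genes.

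Rps16, a small subunit protein near the decoding center, was at 10.33, 10.31 and 10.29 log2 units with DMSO and 10.44, 10.45 and 10.53 with DOX. The groups did not overlap, and it rose by 0.17 ± 0.03 SE (adjusted p = 0.00232 by limma). Rps27a was at 10.61, 10.63 and 10.64 log2 units with DMSO and 10.70, 10.76 and 10.79 with DOX, also without overlap. It rose by 0.12 (adjusted p = 0.0128 by limma), a call lost without DOX 2 (adjusted p = 0.0678) and DOX 3 (adjusted p = 0.0908).

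In this table the replicate number linked DMSO 1 with DOX 1, while the pairing of numbers 2 and 3 was not clear. With the number as a block, 9 members rose and 1 fell, beside 15.6% and 13.8% of all genes. The rises added were those of Rpl12, Rpl14, Rpl32, Rplp1, Rps14, Rps18 and Rps24, at 0.06 to 0.09, and Rps28 fell by 0.09. With the block and the correction for GC content and length together, 3 members rose (Rpl14, Rps16 and Rps27a) and 5 fell, among them Rpl27a, Rpl38, Rps26 and Rps28, beside 15.3% of all genes called higher and 13.0% lower. Without DOX 1 the count of rises in the fit without a block was 6, and without DOX 2 or DOX 3 it was 1.

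Medians of the subunits were 0.02 in both. Rpl11 was at 10.83, 10.87 and 10.84 log2 units with DMSO and 10.77, 10.82 and 10.82 with DOX, with every DOX library lower but no call (−0.04, adjusted p = 0.342 by limma). Rplp0 was at 12.62, 12.62 and 12.64 with DMSO and 12.55, 12.66 and 12.66 with DOX, overlapping (−0.00). Rpl5, Rpl22, Rpl3 and Rps4x had log2 fold changes between −0.02 and 0.01. Of 18 other translation genes 2 fell, Nap1l1 by 0.12 and Npm1 by 0.11, and 0 rose. Among all genes 9.17% were called lower and 10.6% higher.

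Mitochondrial ribosomal genes numbered 3 higher and 1 lower of 78, shares below the 10.6% and 9.17% of all genes. Mrpl19 rose by 0.18, Mrps15 by 0.16 and Mrpl51 by 0.13. Among 16 regulators Mxd1 (0.13) and Eif4ebp2 (0.13) rose and 0 fell, and Larp1 was at 0.06 without a call. Of the 11 myeloid progenitor markers 6 rose here, beside 10.6% of all genes. The 3 endothelium markers summed to 910 to 921 with DMSO and 658 to 705 with DOX, on the linear scale. The part of these markers in the members' values was not tested.

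In MLL-AF9, 0 of 79 members were called with DOX, beside 7.23% of 10881 genes called higher and 4.54% called lower by limma on log2(FPKM + 1), a scale that understates the change of low genes. At an unadjusted p under 0.05 there were 6, 5 of them higher, beside 3041 of 10881 genes, 1578 of them higher. No count test applies to FPKM. The median was 0.10, against −0.02 over all genes, with 65 above 0, and it was 0.05 without DMSO 2. In 13 members all DOX libraries were higher and in 1 lower, beside 17.2% and 16.8% of all genes.

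Member values scattered most in the DOX libraries. They spread around their group mean with an SD of 0.12 to 0.16 with DMSO and 0.21 to 0.29 with DOX. Rpl27 was at 356, 343 and 417 FPKM with DMSO and 422, 417 and 166 with DOX. Rps28 was at 789, 867 and 866 with DMSO and 1016, 965 and 425 with DOX. For both genes DOX 3 lay far below all other libraries.

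The paralog Rps27l was at 542, 462 and 502 FPKM with DMSO and 454, 390 and 402 with DOX. All DOX libraries were lower, by 0.27, without passing the threshold (adjusted p = 0.121 by limma). With the correction for GC content and length it fell by 0.33 (adjusted p = 0.0373), and Rpl23 rose by 0.30 (adjusted p = 0.0458). The authors' deposited table of gene lists has Rps27l among 887 entries down with MLL-AF9 off and Rps27 among 966 down with MLL-AF10 off. It has 0 members among 359 down with CALM-AF10 off. Rps27 did not pass the filter in MLL-AF10 and was not tested there.

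Rps27a was at 701, 619 and 723 FPKM with DMSO and 916, 817 and 759 with DOX, again without overlap (0.28, adjusted p = 0.140 by limma). Rplp2 was at 1647, 1473 and 1749 and at 2032, 1700 and 1652 FPKM, overlapping (0.14). Rpl39l, a paralog known from mouse testis, reached 5.77 FPKM in DOX 2 and was listed at 0.01, the floor of that table, in 3 libraries. It passed the filter of 1 FPKM only through the DOX group, so its call in the fit without DOX 1 is not read as a difference. The near relative Rpl7l1 fell from 60.6 ± 1.54 to 48.2 ± 2.43 FPKM (adjusted p = 0.0314 by limma).

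Of the other translation genes 1 of 18 rose, as Eif3h went from 123 ± 5.62 to 154 ± 10.3 FPKM (0.31, adjusted p = 0.0445 by limma). Eif3f (0.53) and Eef1d (−0.29) were not called. Mitochondrial ribosomal genes had 0 rises and 4 falls of 77, among them Mrpl12 (−0.45), Mrpl18 (−0.43) and Mrps18b (−0.54), with a median of −0.10. Among all genes 7.23% were called higher and 4.54% lower. Of 16 regulators Larp4 fell by 0.46, while Rps6kb1 (−0.38) and Myc (−0.21) were not called. The 11 myeloid progenitor markers summed to 9026 to 10015 FPKM with DMSO and 7742 to 8569 with DOX, and Mpo fell while Csf1r rose. The 4 megakaryocyte markers summed to 14.2 to 20.6 FPKM with DMSO and 24.6 to 27.5 with DOX, and the 3 endothelium markers to 21.9 to 22.7 and 12.6 to 15.96. Erythroid and B cell markers summed to under 2 FPKM in every library. None of them passed the filter, so their lower sums with DOX, near the floor, were not tested. The part of these markers in the members' values was not tested.

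Over the 4 comparisons, 75 members were tested each time. Of these 42 had a log2 fold change above 0 in all 4, 26 in 3 and 7 in 2 or fewer. Rpl27 and Rps28 were above 0 in 1 comparison at most. Rps27a had the highest mean rank of log2 fold change, 8.25 of 75, followed by Rplp2 at 12. Groups were apart and higher in all 4 comparisons for 2 of the 75, Rps27a and Rpl32, beside 0.618% of 9705 genes. Both were named after their values were seen.

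Per transcript length, the core messages covered a wide range. In MLL-AF9 cells with DMSO, the median over 77 core genes was 748 FPKM. Rpl38 was highest at 3308 ± 446 FPKM and Rplp1 next at 2580 ± 237, with Rpl38 above Rplp1 in each DMSO library and a gap larger than either SD. Leaving out the 4 genes described next, Rpl29 was lowest at 38.7 ± 4.2 FPKM, followed by Rps15a at 88.1 ± 9.3 and Rpl15 at 95.1 ± 12.1. The last 2 differ by less than their spread. The small subunit had a median of 838 FPKM over 30 genes and the large subunit 706 over 43.

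In the count tables, CPM per kb of the annotated transcript gave Rplp1 as the highest, at 2127 with CALM-AF10 on and 3375 in Jak1 floxed cells. The extremes of MLL-AF9 did not recur there. Rpl38, at 295 and 455, lay below the core medians of 535 and 730. Rpl29 was at 258 and 291, while the lowest, leaving out the 4 genes described next, were Rpl15 at 112 and Rps15a at 129. Over 74 core genes above 1 in each table, log2 levels had a Pearson correlation of 0.99 between the 2 count tables of 0.80 between Jak1 and MLL-AF9 and of 0.77 between CALM-AF10 and MLL-AF9. The Spearman correlations were 0.98, 0.63 and 0.58. The 74 include Rpl34 and Rps27, which were nearly uncounted. Both count tables were divided by the same lengths, and the genes are the same, so these values are a description.

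Rpl26, Rpl30, Rpl34 and Rps27, core proteins of every ribosome, were nearly absent from the values in all tables. Each was under 5% of the median core level. Rpl26 had 0 counts in all 12 libraries of the count tables, was listed at log2 0 in MLL-AF10 and at 0.01 FPKM in MLL-AF9. Rpl30 had 3 to 26 counts, Rpl34 18 to 61 and Rps27 13 to 67.

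In MLL-AF9 the near relative Rps27rt was listed at 2630, 2237 and 2441 FPKM with DMSO and 3140, 2985 and 3354 with DOX, while Rps27 was at 6.93, 11.1 and 6.61 and at 3.38, 7.92 and 11.8. In the count tables Rps27rt had 0 counts. Rps27 lies on chr3:90016593-90017573 and Rps27rt on chr9:114891515-114891858, both on the minus strand of NCBIM37 (mm9). Their coding sequences in the GENCODE vM1 annotation, 255 bases each, differ at 0 positions. Bases 1 to 60 are printed to show it, with the start codon in capitals.
Rps27: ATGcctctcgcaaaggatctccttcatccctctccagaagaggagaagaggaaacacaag
Rps27rt: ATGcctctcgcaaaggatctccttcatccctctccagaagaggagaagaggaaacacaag

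Many members share sequence with other places in the genome. Of the 32-base words in the transcripts of 76 core genes, a median of 71.3% occurred elsewhere in NCBIM37, against 2.42% for 77 genes of the mitochondrial ribosome. For the 4 nearly absent genes the share was 47.8% (Rpl30), 56% (Rpl34), 86.5% (Rpl26) and 99.7% (Rps27), within the range of 2.33% to 100% of the other 72. The sources used here do not say how reads that match several places were assigned, so values of members with close copies are uncertain.

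**Figure D5:**
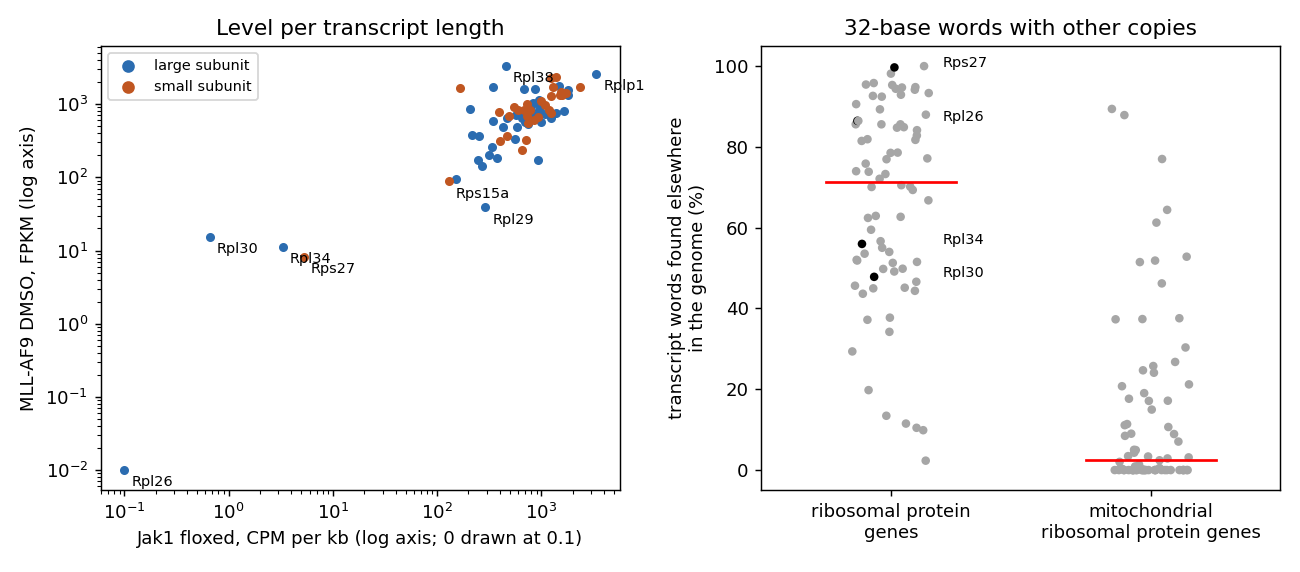
Left: level per length of each core gene in MLL-AF9 DMSO (FPKM) against Jak1 floxed (CPM per kb), both on log axes, with large subunit genes in blue and small subunit genes in orange; Rpl26, at 0 counts, is drawn at 0.1 CPM per kb. Right: percent of 32-base transcript words found elsewhere in the genome, for core genes (median 71.3%) and genes of the mitochondrial ribosome (median 2.42%), with the 4 nearly absent genes in black.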

How the data were processed

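For CALM-AF10 and Jak1 the authors deposited gene counts in whole numbers (the Jak1 table is named FPKM but holds counts), and they deposited normalized log2 values for MLL-AF10 and FPKM for MLL-AF9. They also deposited lists of genes. Bowtie 0.12.2 and mm9 are named per the submitters' processing notes and the sources used here name no counting tool. The Jak1 columns named DMSO and Jak1_Del were taken as floxed and null.

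Counts were tested with edgeR 4.0.16 (R 4.3.3, filterByExpr, TMM, quasi-likelihood). For log2 values and log2(FPKM + 1), limma 3.58.1 was used (trended eBayes, mean of at least 3.32 log2 units, the log2 of 10, or 1 FPKM). DESeq2 1.42.0 was an alternative. The pipeline was tested on simulated data with changes larger than those of most members, so that test does not cover changes of their size. Benjamini-Hochberg adjustment covered all genes tested, and an adjusted p under 0.05 was called. An SE is that of the fit, and other errors are SD over 3 libraries.

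The members, lists and alternatives were chosen with earlier results of these data known. The correction for GC content and length (splines over all genes) was chosen after seeing the data. Named were the 6 largest rises and falls among called members, a set of 23 genes by role, and the 3 smallest adjusted p in each companion list; a few results are not reported here. Deviations from the group mean of same-numbered libraries correlated at 0.40, 0.20 and 0.19 over genes in MLL-AF10. The highest values between DMSO and DOX libraries of different numbers there were 0.175 and 0.170, close to 0.20 and 0.19. The numbers therefore tie only the pair at 0.40. Libraries of a group differed by more than sampling noise in both count tables, with a chi-square per gene of 1.68 to 11.5.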

Additional observations from a re-analysis of the deposited data

How the results depend on the processing

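In CALM-AF10, with 1 member called, the count was 11 by DESeq2, 3 without a filter, 4 with the replicate block, 0 with library totals and 0 with the correction for GC content and length, and leaving out 1 library gave 0 to 9. The correction moved the median from 0.15 to 0.069 and the large minus small difference from 0.01 to 0.0171, which leaving out 1 library moved between −0.0235 and 0.0037. In MLL-AF10, with 2 called, the replicate block gave 10 and the block with the correction 8, and leaving out 1 library gave 1 to 6, with a subunit difference of −0.0096 to 0.0052. In MLL-AF9, with 0 called, the correction gave 2 and leaving out 1 library 0 to 1, with a subunit difference of −0.0301 to 0.0291. In the Jak1 comparison the 13 alternatives gave 43 to 57 members, the median without 1 library ranged from 0.0985 to 0.1572 and the subunit difference from −0.0317 to −0.0127. No value that was called reversed its sign under these alternatives. The causes of these shifts were not tested. Same-numbered libraries did not pair in MLL-AF9 and Jak1 (correlations of −0.03 to 0.02). In CALM-AF10 on 1 with off 1 reached 0.41 and on 2 with off 2 reached 0.23. The third pair reached 0.08, while on 3 with off 2 reached 0.19. The replicate block gave 0 calls in MLL-AF9 and 52 in Jak1. Depth limits the low members: Rpl30, Rpl34 and Rps27 had at most 67 counts in any library.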
